A study of Mus musculus with 28 samples.

Results

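The class I and class II histone deacetylases, grouped here as targets of trichostatin A (TSA), were measured as mRNA in mouse hippocampus. How strongly TSA inhibits each enzyme was not measured by the arrays. The group comprised 10 genes, chosen by symbol from the 19938 genes with a name on the array: Hdac1, Hdac2, Hdac3 and Hdac8 of class I, Hdac4, Hdac5, Hdac7 and Hdac9 of class IIa, and Hdac6 and Hdac10 of class IIb. A gene with several transcript clusters (the sets of probes read as a unit) was represented by the cluster with the highest mean. All 10 genes had a cluster, and no filter on low values was applied.

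The study crossed genotype, housing and TSA in 8 groups of 3 or 5 arrays, 28 arrays in all. All mice were C57/DBA F1 hybrid females aged 3 months, either cbp+/- or wild-type littermates. The cbp+/- mice are heterozygous for a disrupted Crebbp gene, and the labels do not say which allele was used. TSA was injected intraperitoneally at 2.4 mg/kg, and hippocampi were taken 75 min later. Novelty was 1 h alone in a box with tubes and toys, begun 15 min after the injection in the mice that also had TSA. The TSA groups (cbp+/- and wild type, after novelty and in the standard cage) had 3 arrays each. The groups without TSA had 3 vehicle-injected arrays each after novelty. In the standard cage they had 5 each, of which 2 came from naive mice and 3 from vehicle-injected mice. Vehicle was DMSO and saline. Each array held RNA pooled from 3 or 4 mice, so replicates measure the variation of pools and not of single mice. In these samples of whole tissue, fewer cells of a type and less RNA per cell cannot be told apart.

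Deacetylases remove acetyl groups from lysines of histones and other proteins, against acetyltransferases such as CBP, the protein encoded by Crebbp. Class I enzymes are mostly nuclear and work in corepressor complexes, class IIa enzymes shuttle between nucleus and cytoplasm and bind MEF2 factors, and class IIb enzymes act largely on cytoplasmic substrates. In the hippocampus, deacetylases, among them Hdac2, are known as brakes on memory formation and synaptic plasticity. TSA binds the zinc ion in the catalytic pocket. It acts on the enzymes, while the arrays measured their transcripts.

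The 12 neuron markers used to check the tissue were all measured, with mean log2 levels that reached 11.9 for Syt1 and 11.1 for Slc17a7 and were lowest for Dsp, a marker of dentate granule cells, at 7.10. Arrays were placed in 4 sets that no label names. Set 1 held the 4 naive arrays, and sets 2 to 4 each held 1 injected array of each of the 8 groups. Within a group, the injected arrays entered sets 2, 3 and 4 in order of replicate number. Array deviations correlated at r = 0.33 to 0.80 within a set (88 pairs). Between sets they correlated at -0.63 to 0.43 (252 pairs), so the ranges overlapped. Array set accounted for 95.6% of the variance of the first principal component, and group for 5.61%. This component covers 34.5% of the variation among the arrays. The main differences are therefore given both without a block and with array set as a block. The sets were found in these same values, so the fit without the block is given first. In 3 arrays (replicate 1 of the cbp+/- cage TSA group, replicate 1 of the wild-type novelty TSA group and replicate 3 of the cbp+/- cage controls), choroid plexus markers lay 1.09 to 1.47 log2 above the mean, against -0.38 to 0.48 in the other 25. Crebbp itself read 8.97 to 9.77 log2 (median 9.42) in 14 cbp+/- arrays, against 8.68 to 9.70 (median 9.32) in 14 wild-type arrays. The difference of 0.21 ± 0.12 (SE) did not pass the test (limma adjusted p = 1, and adjusted p = 0.066 with the block). Where its probes lie relative to the altered part of the gene is not known here, so this value checks no label.

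Of the 10 deacetylases, Hdac1 had the clearest difference with TSA. Hdac1, a catalytic subunit of the Sin3, NuRD and CoREST corepressor complexes, was higher in all 4 TSA group means than in any group without TSA. The averaged difference was 0.23 log2, a fold of 1.17. No other deacetylase passed the test in either fit.

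After novelty, cbp+/- arrays had Hdac1 levels of 8.38, 8.44 and 8.67 log2 with TSA, against 8.20, 8.02 and 8.32 with vehicle. Wild-type novelty arrays had 8.28, 8.26 and 8.66 with TSA, against 8.002, 8.11 and 8.26 with vehicle. Thus every TSA array lay above every vehicle array in cbp+/- mice, and in wild-type mice the lowest TSA array and the highest vehicle array were both near 8.26. In the standard cage, cbp+/- arrays had 8.03, 8.33 and 8.64 after TSA, against 8.20 and 8.14 in naive and 8.14, 8.03 and 8.34 in vehicle controls. Wild-type cage arrays had 8.20, 8.18 and 8.54 after TSA, against 8.14 and 8.18 in naive and 8.06, 7.97 and 8.39 in vehicle controls. In the cage the ranges overlapped in both genotypes, with the highest array in the TSA group.

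**Figure D1:**
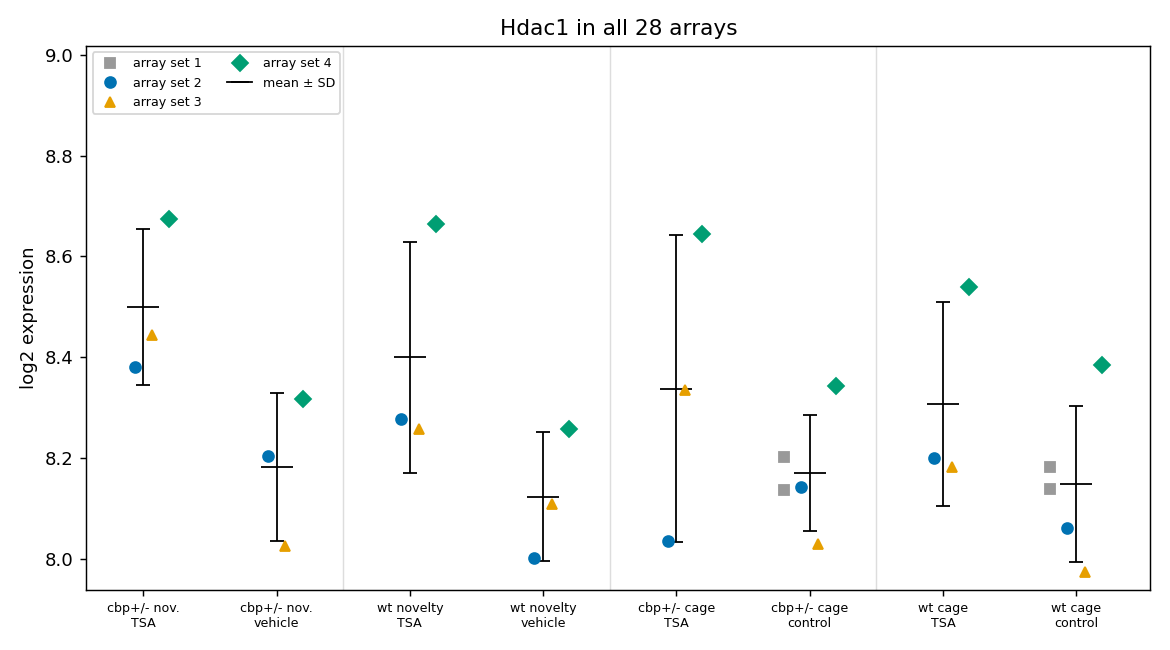
Hdac1 log2 expression (y axis) in each of the 28 arrays, by group (x axis, TSA left of its control); marker shape gives the array set, and bars give mean ± SD. The 4 TSA group means, 8.31 to 8.50, lie above the 4 means without TSA, 8.12 to 8.18, and single arrays overlap.

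Over all backgrounds Hdac1 ranged from 8.03 to 8.67 log2 (median 8.36) in 12 TSA arrays, and from 7.97 to 8.39 (median 8.14) in 16 arrays without TSA. The averaged difference was 0.23 ± 0.07 log2 (SE, 95% interval 0.09 to 0.37). It did not pass the test across 19938 genes (limma adjusted p = 0.15). In the fit that took the array sets as a block the difference was 0.23 ± 0.04 (0.15 to 0.32) and passed (limma adjusted p = 0.00105). The call thus depended on the block, while the size of the difference was nearly the same in both fits.

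Hdac1 levels also differed by array set. Set 4 averaged 8.48 log2, and sets 1 to 3 averaged 8.16 to 8.17. Within a set, the TSA array was higher than its partner of the same genotype and housing in 11 of 12 pairs, with differences of -0.11 to 0.42 log2 and a median of 0.24. The exception was the cbp+/- cage pair of set 2, with 8.03 after TSA and 8.14 after vehicle. Both arrays of that pair are among the 3 with raised choroid plexus markers. Without those 3 arrays the Hdac1 difference was 0.28 log2 (limma adjusted p = 0.0929), and 0.27 with the block (limma adjusted p = 0.000464). Leaving them out also removes the only negative pair, so these larger values cannot show the part of choroid plexus tissue. After each set's mean was subtracted, 9 of 12 TSA arrays lay above all 12 injected arrays without TSA. Leaving out each array in turn gave differences of 0.19 to 0.27 without the block, none of which passed, and 0.22 to 0.26 with it, all of which passed. Leaving out a whole array set, with the block, gave 0.20 to 0.29, with the highest adjusted p, 0.04999 (limma), without set 4.

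By background, the Hdac1 difference was 0.32 ± 0.15 log2 (SE) in cbp+/- and 0.28 ± 0.15 in wild type after novelty. In the cage it was 0.17 ± 0.13 in cbp+/- and 0.16 ± 0.13 in wild type. With the block these values were the same to 2 decimals, with SEs of 0.08. No single background passed the test (limma, lowest adjusted p = 0.996 without the block and 0.173 with it). The TSA difference was not shown to depend on genotype (interaction 0.02 ± 0.14, 95% interval -0.26 to 0.31) or on housing (interaction 0.13 ± 0.14, -0.15 to 0.42). The array holds a second Hdac1 cluster listed with the same transcripts, so its probes may also read a near-identical copy, and the gene's value is uncertain to that extent. The second cluster correlated with the first at r = 0.963 over 28 arrays. It gave 0.23 ± 0.08 (limma adjusted p = 0.275), and 0.25 ± 0.04 with the block (limma adjusted p = 0.000183).

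Counted over the 10 deacetylases, 0 passed for TSA without the block (limma, 2 at an unadjusted p under 0.05, Hdac1 and Hdac10), where 0.662% of all genes passed. With the block 1 of 10 passed, where 4.51% of all genes passed and 2.66% passed as higher. The members' median difference was 0.08 log2 without and 0.07 with the block, beside medians of 0.01 and 0.00 over all genes. In both fits 8 members had positive and 2 had negative differences, where 53.9% of all genes were positive without and 51.7% with the block. Taken in each background alone, 0 of 10 passed in all 4 without the block, and 0% of all genes passed there. With the block 0 of 10 passed too, where 0.0201% of genes passed in cbp+/- and 0.0702% in wild type after novelty, and 0.0251% in cbp+/- and 0.0401% in wild type in the cage.

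**Figure D2:**
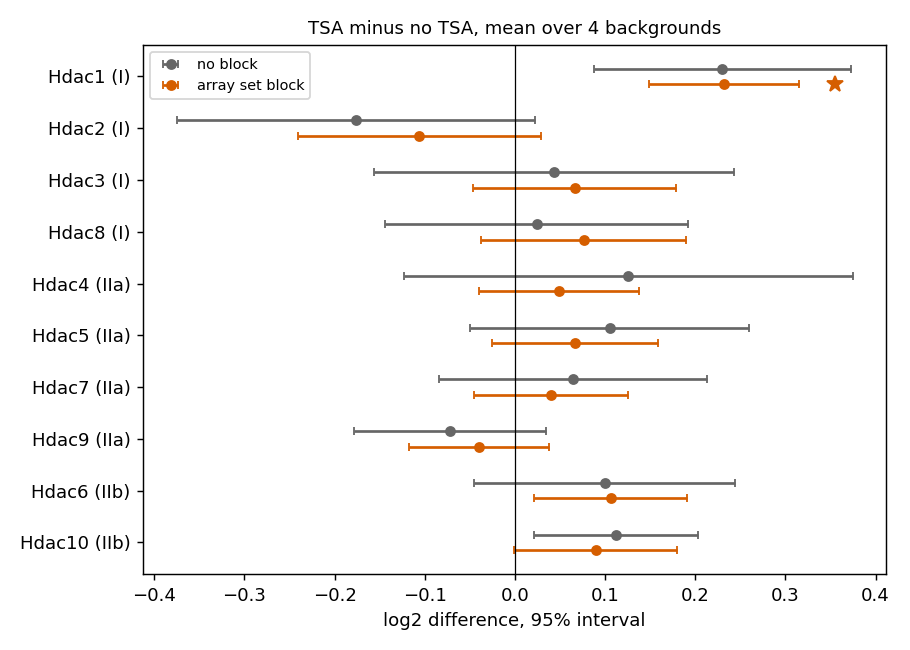
TSA minus no TSA for the 10 deacetylase genes (y axis), as log2 difference averaged over the 4 backgrounds (x axis); points are limma estimates, bars their 95% intervals, with and without array set as a block, and the star marks the difference that passed. Hdac1, at 0.23, is the gene whose interval lies farthest above 0; most others span 0.

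Hdac2, the close paralog of Hdac1 in the same complexes, had a TSA difference of the other sign, which did not pass. Hdac2 ranged from 8.78 to 9.64 log2 (median 9.14) in 12 TSA arrays, against 8.92 to 9.72 (median 9.24) in 16 arrays without TSA. The ranges overlapped almost fully. The difference was -0.18 ± 0.10 (SE, limma adjusted p = 0.683), and -0.11 ± 0.07 with the block (limma adjusted p = 0.478). The TSA array was the lower in 8 of 12 within-set pairs. Its highest levels were in the naive wild-type arrays (9.66 and 9.68) and in set 4 after novelty in cbp+/- mice (9.64 with TSA and 9.72 with vehicle).

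Hdac3, the catalytic subunit of the NCoR and SMRT complexes, ranged from 9.09 to 9.77 log2 (median 9.52) after TSA, against 9.04 to 9.84 (median 9.45) without it. Its TSA difference was 0.04 ± 0.10 (95% interval -0.16 to 0.24), and 0.07 ± 0.05 with the block, and TSA arrays were higher in 6 of 12 within-set pairs. Hdac8, a deacetylase of the cohesin subunit SMC3, ranged from 6.96 to 7.62 log2 (median 7.20) after TSA, against 6.79 to 7.53 (median 7.25) without it. Its TSA difference was 0.02 ± 0.08 (-0.14 to 0.19), and 0.08 ± 0.06 with the block (-0.04 to 0.19), and TSA arrays were higher in 8 of 12 within-set pairs. Neither gene passed in either fit. For both genes the arrays with and without TSA covered nearly the same range.

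The subunits that class I deacetylases work with were counted from a list of 38 genes, 35 of them measured. Without the block 2 rose with TSA and 0 fell, where 0.446% of all genes passed as higher. Sin3a, the scaffold of the Sin3 complex, rose by 0.41 ± 0.07 log2 (SE, limma adjusted p = 0.00183). Rcor2, a CoREST corepressor, rose by 0.23 ± 0.05 (limma adjusted p = 0.0274). With the block 6 rose and 0 fell, where 2.66% of all genes passed as higher. Beside Sin3a (0.40 ± 0.06, limma adjusted p = 0.000393) and Rcor2 (0.23 ± 0.05, 0.00955) these included Rcor1, the CoREST scaffold, at 0.30 ± 0.05 (limma adjusted p = 0.000254). Sap30l, a Sin3 subunit, was at 0.17 ± 0.04 (limma adjusted p = 0.0133). The list's median was 0.06 without and 0.05 with the block. Among the 8 other deacetylases, Hdac11 and the sirtuins, 1 passed as lower in each fit, where 0.216% of all genes passed as lower without and 1.85% with the block. Sirt1, an NAD-dependent deacetylase that TSA does not target, fell by 0.34 ± 0.07 log2 (limma adjusted p = 0.0242), and by 0.29 ± 0.07 with the block (limma adjusted p = 0.0108).

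Class IIa genes varied mainly by array set, as did most of the other deacetylases, and none passed for TSA. Hdac4, a neuronal corepressor of MEF2 factors, shows the pattern most plainly in its cluster with the highest mean. Its levels in set 2 were 7.90 to 8.11 log2 (median 8.06), in set 3 7.79 to 8.09 (median 7.94) and in set 4 7.17 to 7.68 (median 7.42). The 4 naive arrays of set 1 had 7.29 to 7.40. Sets 2 and 3 thus lay above sets 1 and 4 with no overlap. Array set accounted for 89.5% of the variance of Hdac4 in this cluster, and for 43.8% of that of the median gene. It accounted for 72.1% in Hdac7, 70.9% in Hdac5 and 70.3% in Hdac9. Outside the class it was 68.6% in Hdac3, 67.9% in Hdac6, 61.3% in Hdac2, 58.8% in Hdac8 and 51.8% in Hdac1. The lowest share among the 10 genes was 16.5%, in Hdac10.

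**Figure D3:**
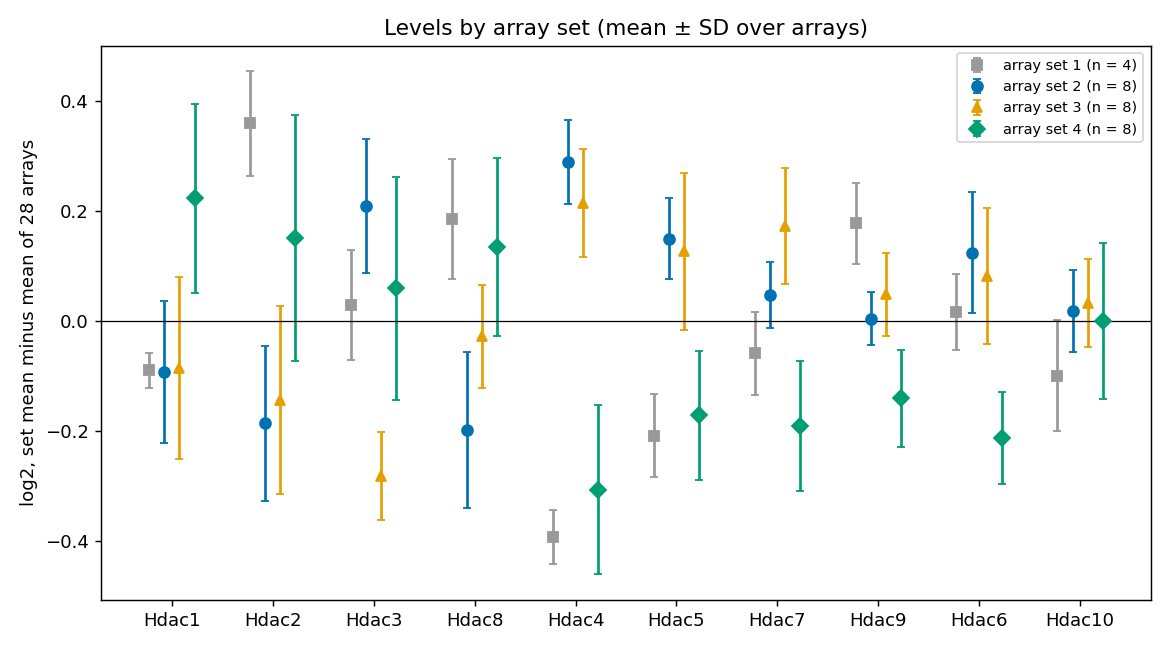
Levels of the 10 deacetylase genes (x axis) by array set, as set mean minus the mean of the 28 arrays in log2 (y axis); bars are SD over the arrays of a set (n = 4 in set 1 and 8 in sets 2 to 4). Hdac4 spreads widest, with set means of 7.35, 8.03, 7.96 and 7.44 log2 in sets 1 to 4.

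Hdac4 ranged from 7.17 to 8.11 log2 (median 7.97) in TSA arrays, against 7.29 to 8.10 (median 7.69) in arrays without TSA. Its difference of 0.13 ± 0.12 (SE) was 0.05 ± 0.04 with the block. A second Hdac4 cluster correlated with the first at only r = 0.244, and its difference had the other sign, -0.10 ± 0.11. The share of its variance by array set was not computed. Neither cluster passed. Hdac5, which restrains activity-dependent transcription in neurons of mice, ranged from 7.95 to 8.57 (median 8.24) after TSA, against 7.79 to 8.30 (median 8.16) without it. Its difference was 0.11 ± 0.07, and 0.07 ± 0.04 with the block. Of the remaining pair, Hdac7, studied mostly in T cells and vessels, differed by 0.06 ± 0.07, and by 0.04 ± 0.04 with the block. Hdac9, which also yields a truncated MEF2 corepressor, differed by -0.07 ± 0.05, and by -0.04 ± 0.04 with the block. The class's partners, MEF2 factors, 14-3-3 proteins and the kinases that export the enzymes from the nucleus, numbered 23 measured genes of 24. For TSA 0 of them passed in either fit, where 0.662% of all genes passed without and 4.51% with the block.

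Promoter windows from RefSeq (GRCm38.p6, 250 bases before to 50 after a start site) were read for 7 of the 10 genes (11 windows). They are shown for Hdac4 and Hdac5. Among the windows read, theirs held the motif TGACG, the core of the element bound by CREB, the factor that recruits CBP. The capitals mark TGACG. Hdac4 lies on the minus strand at chr1:92180292-92180591 and Hdac5 on the minus strand at chr11:102230123-102230422.
Hdac4: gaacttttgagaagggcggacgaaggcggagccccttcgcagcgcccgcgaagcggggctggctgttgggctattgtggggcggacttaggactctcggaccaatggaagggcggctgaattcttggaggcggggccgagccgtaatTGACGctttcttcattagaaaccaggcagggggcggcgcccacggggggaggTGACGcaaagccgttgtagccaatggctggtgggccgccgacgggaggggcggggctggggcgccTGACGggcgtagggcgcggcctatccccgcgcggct
Hdac5: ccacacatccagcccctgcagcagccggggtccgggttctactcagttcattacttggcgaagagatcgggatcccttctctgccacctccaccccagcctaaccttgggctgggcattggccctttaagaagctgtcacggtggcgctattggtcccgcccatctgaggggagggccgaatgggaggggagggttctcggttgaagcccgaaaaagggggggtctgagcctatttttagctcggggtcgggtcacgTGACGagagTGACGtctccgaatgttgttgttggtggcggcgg

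Hdac4 held 3 matches and Hdac5 held 2, with both strands searched. No window was read for Hdac1, Hdac3 or Hdac10, so the motif counts do not cover them. Of all 32851 windows, 20.81% held TGACG. The full palindrome TGACGTCA, which contains the shorter motif, was in 0 of the 7 genes' windows and in 1.79% of all windows. A GC box (GGGCGG, either strand) was in windows of 5 of the 7 genes and in 35.66% of all windows. A gene was counted if any of its windows held the box, so the count of genes cannot be compared with the share of windows. Beside these letters stand the genotype differences of the 2 genes. Hdac4 differed by -0.08 ± 0.12 log2 and Hdac5 by -0.07 ± 0.07 (SE) in cbp+/- arrays over wild type, and neither passed.

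Class IIb genes had small positive TSA differences that did not pass. Hdac10, known as a polyamine deacetylase, ranged from 6.07 to 6.28 log2 (median 6.18) in TSA arrays, against 5.86 to 6.31 (median 6.07) in arrays without TSA. Its 4 TSA group means were the 4 highest of the 8. The difference was 0.11 ± 0.04 (SE, limma adjusted p = 0.399), and 0.09 ± 0.04 with the block (limma adjusted p = 0.319). TSA arrays were higher in 10 of 12 within-set pairs. Hdac6, which deacetylates tubulin, ranged from 7.53 to 8.09 (median 7.95) after TSA, against 7.53 to 8.07 (median 7.81) without it. Its 4 TSA group means were also the 4 highest. It differed by 0.10 ± 0.07, and by 0.11 ± 0.04 with the block (limma adjusted p = 0.171). Of the 15 partners and substrates listed for these enzymes 9 were measured, and 0 passed for TSA in either fit. Over all genes 0.662% passed without and 4.51% with the block.

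**Figure D4:**
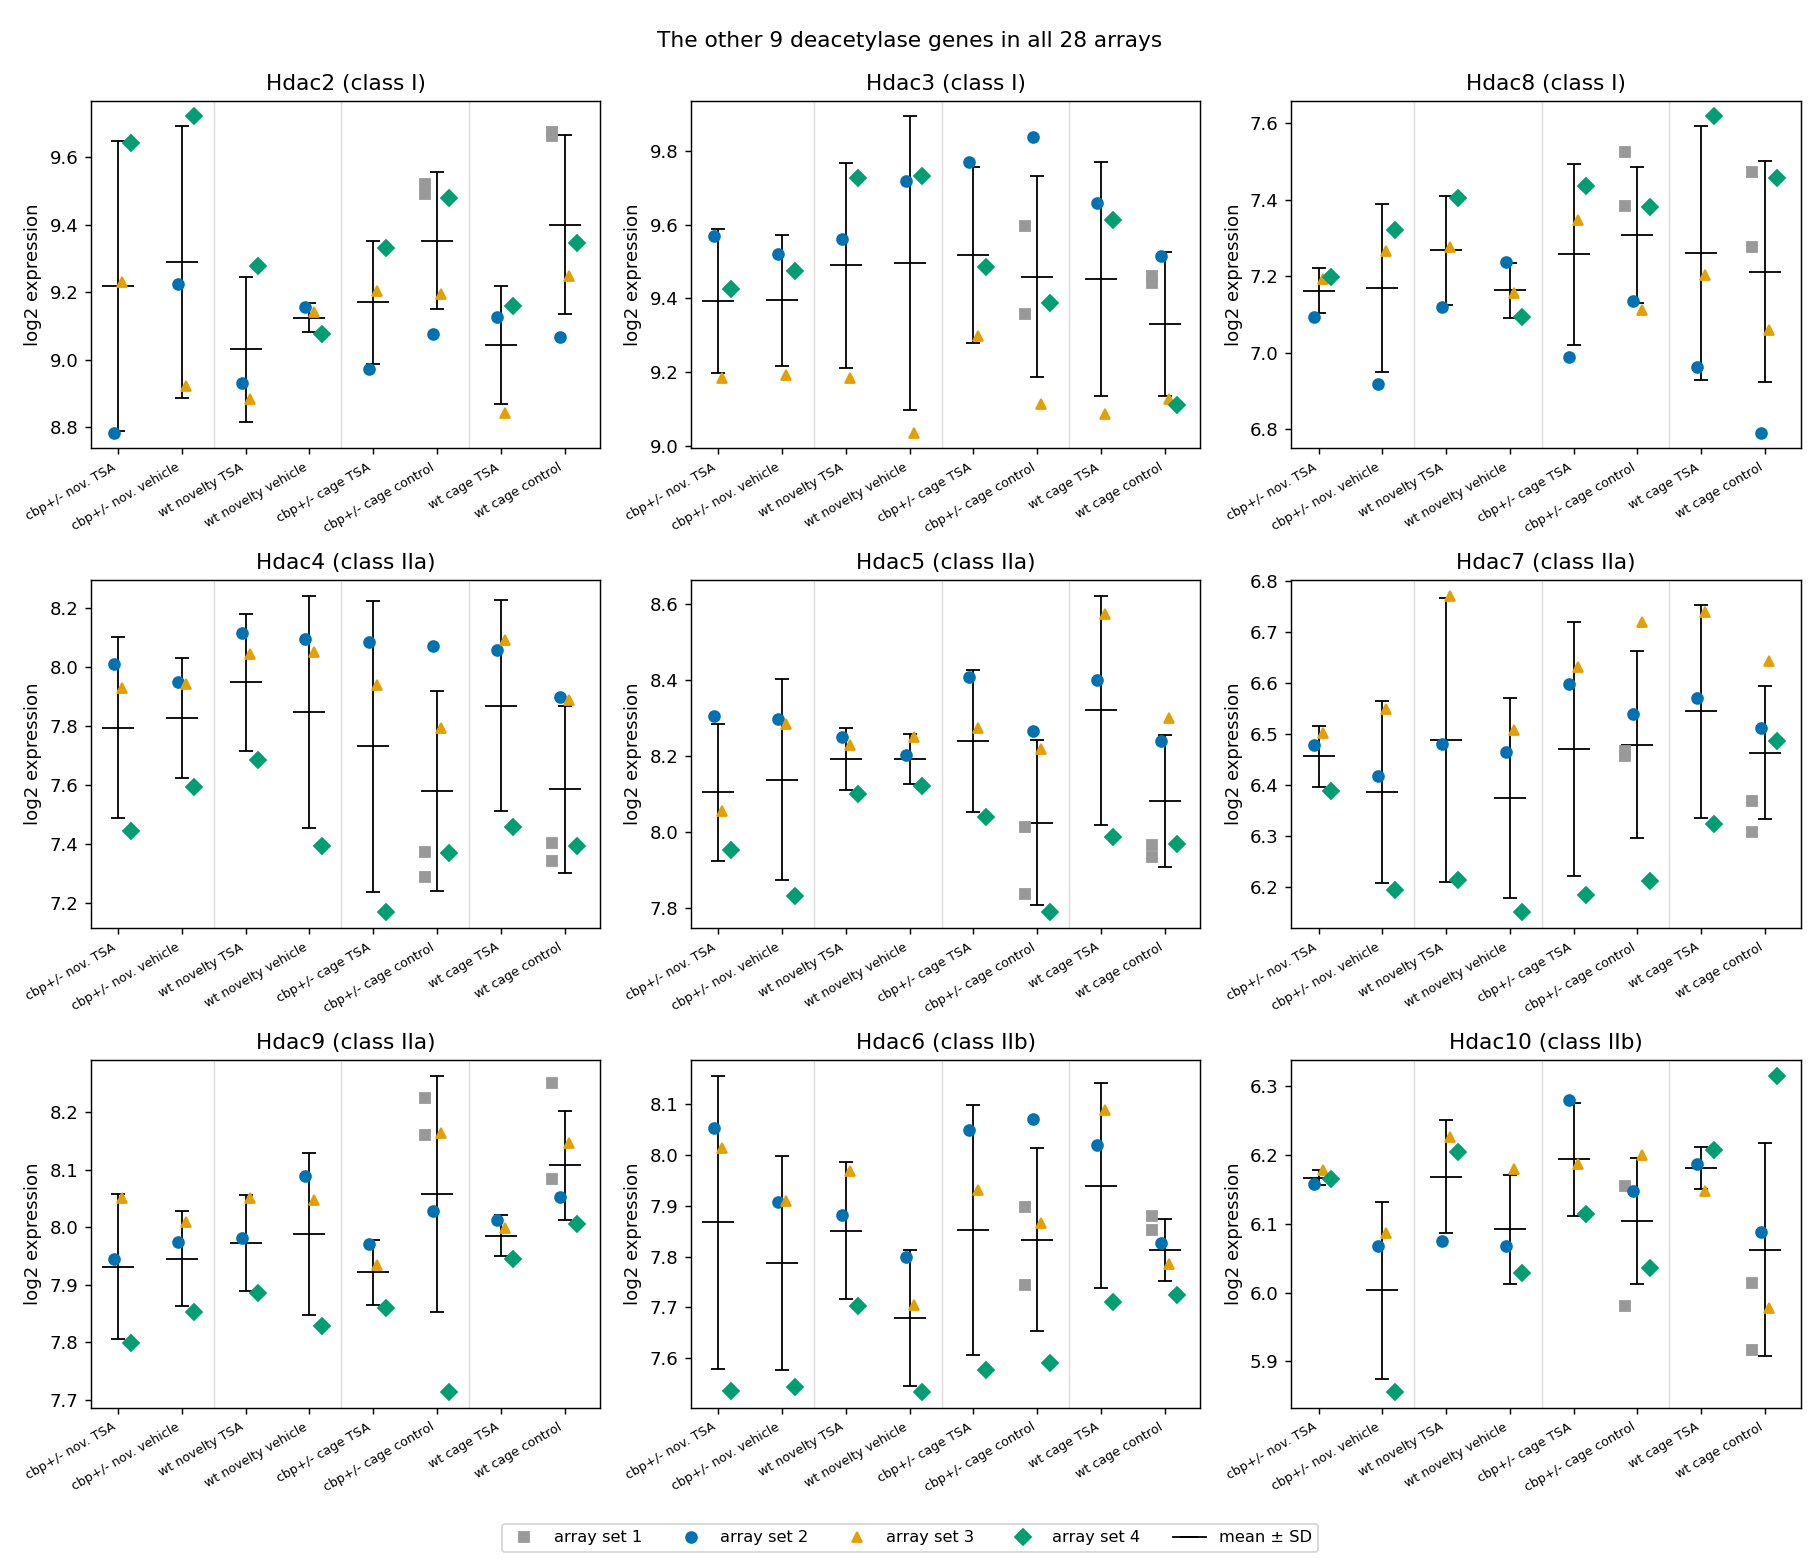
Log2 expression (y axis, scaled per gene) of the other 9 deacetylases in each of 28 arrays, by group (x axis, TSA left of its control); marker shape gives the array set, and bars give mean ± SD. In most panels the markers of a set stay together across groups, as for Hdac4, where set 4 lies at 7.17 to 7.68 log2.

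Read across the 8 groups, the gaps between group means were set against their spread. For each of the 10 genes, 0 of the 7 gaps between neighbouring group means was larger than the larger SD of the pair. This rule is hard to meet, since the SDs also hold the differences between array sets. For Hdac3 the highest and lowest of the 8 means lay only 0.19 log2 apart, with SDs of 0.24 and 0.20. The count therefore cannot decide whether the groups are ordered. For Hdac1 the means ran from 8.50 ± 0.16 log2 (SD, n = 3) in cbp+/- novelty TSA arrays to 8.12 ± 0.13 (n = 3) in wild-type novelty vehicle arrays.

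No deacetylase passed the test for novelty. For this 0 of 10 passed without the block (limma, 0 at an unadjusted p under 0.05), where 0.191% of all genes passed, and 0 of 10 with it, where 0.476% passed. The members' median difference was -0.04 log2 without and -0.02 with the block, beside medians of 0.004 and 0.001 over all genes. In both fits 3 members were positive and 7 negative, where 52.6% of all genes were positive without and 50.9% with the block. The smallest p was that of Hdac7 with the block, -0.09 ± 0.04 log2 (SE, limma adjusted p = 0.597). Hdac7 ranged from 6.15 to 6.77 log2 in novelty arrays, against 6.18 to 6.74 in cage arrays. Hdac4 had the largest difference, 0.16 ± 0.12, and 0.09 ± 0.04 with the block. Its second cluster differed by 0.05 ± 0.11, and by 0.09 ± 0.07 with the block. Among the class IIa partners, 2 of 23 measured genes rose with novelty in the fit with the block, and 0 passed without it. The 2 genes are named here after their values were seen. Sik1, a kinase of class IIa deacetylases, rose by 0.54 ± 0.06 log2 (limma adjusted p = 1.84e-06), and its relative Sik2 rose by 0.30 ± 0.05 (limma adjusted p = 0.00132).

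The deacetylases were not shown to differ by genotype. For cbp+/- against wild type 0 of 10 passed without the block (limma, 0 at an unadjusted p under 0.05), where 0% of all genes passed, and 0 of 10 with it, where 0.662% passed. Differences without the block ran from -0.08 ± 0.12 log2 (SE) in Hdac4 to 0.11 ± 0.10 in Hdac2. The second Hdac4 cluster, not counted among these, differed by -0.18 ± 0.11. With the block it differed by -0.18 ± 0.07 (limma adjusted p = 0.238), and it passed in neither fit. Hdac2 ranged from 8.78 to 9.72 (median 9.23) in cbp+/- arrays, against 8.84 to 9.68 (median 9.15) in wild-type arrays. With the block, the 95% interval for Hdac2 was -0.02 to 0.24, and that for Hdac4 was -0.16 to 0.00. Of 16 acetyltransferases, 0 passed for genotype in either fit. The TSA differences were not shown to depend on genotype or housing for any member, with 0 of 10 passing either interaction in either fit (limma, 0 at an unadjusted p under 0.05). Over all genes 0% passed there.

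**Figure D5:**
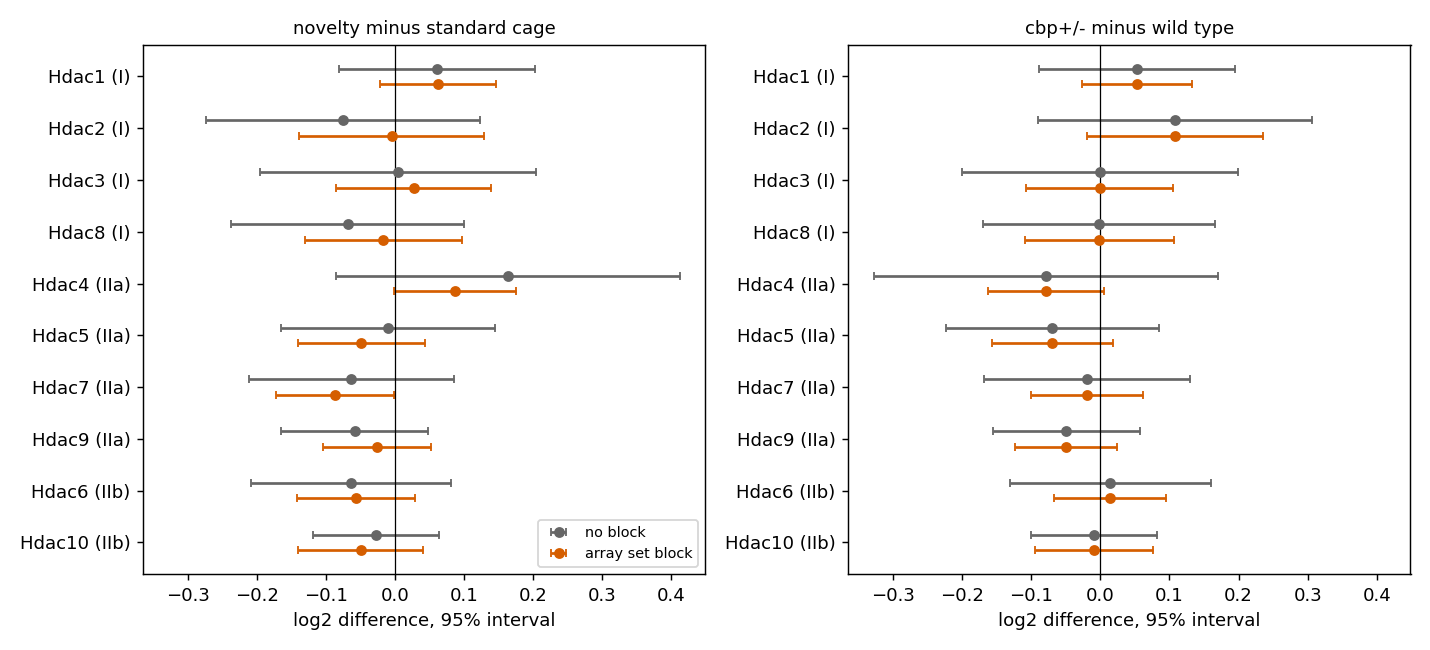
Novelty minus standard cage (left) and cbp+/- minus wild type (right) for the 10 deacetylase genes (y axis), as log2 difference (x axis) averaged over 4 backgrounds; points are limma estimates and bars their 95% intervals, with and without array set as a block. All intervals include 0 except that of Hdac7 for novelty with the block (-0.09 ± 0.04).

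Vehicle-injected and naive cage controls were also set side by side, since both serve as controls. For this 0 of 10 passed (limma, 1 at an unadjusted p under 0.05), where 2.41% of all genes passed. Hdac2 ranged from 9.07 to 9.48 log2 in 6 vehicle arrays, against 9.49 to 9.68 in 4 naive arrays. These ranges did not overlap but nearly touched, and the share of all genes without overlap was not computed. Its difference was -0.35 ± 0.15 (SE, limma adjusted p = 0.263). Hdac4 ranged from 7.37 to 8.07 in vehicle arrays, against 7.29 to 7.40 in naive arrays, and differed by 0.38 ± 0.19 (limma adjusted p = 0.384). Naive arrays form array set 1 alone, so injection and array set cannot be told apart here.

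On the other side of the acetylation balance, 16 acetyltransferases and 23 of 24 listed acetyl-lysine readers were measured. Of the acetyltransferases 0 passed for TSA without the block, where 0.662% of all genes passed, and 2 fell with it, where 1.85% passed as lower. These were Kat6b (-0.19 ± 0.05 log2, limma adjusted p = 0.0142) and Kat5, the catalytic subunit of the Tip60 complex (-0.18 ± 0.05, 0.0201). Among the readers, proteins with bromodomains or related folds, 1 rose and 1 fell without the block, where 0.446% of all genes passed as higher and 0.216% as lower. Atad2 rose by 0.37 ± 0.08 (limma adjusted p = 0.0374), and Brd8, a subunit of the Tip60 complex, fell by 0.19 ± 0.04 (limma adjusted p = 0.041). With the block 3 readers rose and 5 fell, where 2.66% of all genes passed as higher and 1.85% as lower. The 4 with the smallest p were Baz2a (0.31 ± 0.05), Atad2 (0.40 ± 0.07), Dpf1, a subunit of neuronal BAF complexes (0.26 ± 0.05), and Yeats4 (-0.36 ± 0.07).

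Of the marker lists, 0 genes passed for TSA without the block, where 0.662% of all genes passed. With the block 1 of 12 neuron markers, Neurod6, fell by 0.26 ± 0.07 log2 (limma adjusted p = 0.0268), where 4.51% of all genes passed in either direction. Choroid plexus markers were higher on average in 11 of 11 measured genes without the block, with a median of 0.12 log2. With the block 10 of 11 were higher, with a median of 0.09. Their mean level ranged from 4.92 to 6.66 log2 in TSA arrays and from 4.90 to 6.74 in arrays without TSA, and none passed. Endothelial markers averaged 6.30 to 6.92 in TSA arrays and 6.36 to 6.97 without TSA, with 0 of 7 positive without and 1 of 7 with the block. Astrocyte markers averaged 9.05 to 9.54 in TSA arrays and 9.20 to 9.63 without TSA, with 1 of 8 positive in both fits. Oligodendrocyte markers averaged 8.09 to 8.73 in TSA arrays and 8.24 to 8.78 without TSA, with 2 of 7 positive without and 0 of 7 with the block. Over all genes 53.9% were positive without and 51.7% with the block. None of these marker genes passed. The part of these shifts in the Hdac1 difference was not tested. Leaving out the 3 choroid plexus arrays cannot show it, since that also removes the only within-set pair with a negative Hdac1 difference.

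Genes that varied most like the deacetylases were sought over the 28 arrays after the mean of each array set was subtracted. These correlations share the arrays and the group differences and are descriptions. For Hdac1 the highest were L3mbtl3 (r = 0.845) and Ap1s3 (0.828). For Hdac2 they were Ppp3cb (0.831) and Dennd1b (0.830), for Hdac4 Tmem170b (0.802) and Mtmr4 (0.767), and for Hdac5 Cdk5r1 (0.812) and Abcb9 (0.754). Both class IIb genes had Hap1 first, at 0.802 for Hdac6 and 0.661 for Hdac10. For Hdac3, Hdac8, Hdac7 and Hdac9 the first were Creg1 (0.761), Dsc3 (0.682), Ctsll3 (0.757) and Dnah7a (0.669). Among the deacetylases themselves the extremes were 0.552 between Hdac7 and Hdac10 and -0.516 between Hdac2 and Hdac5. Hdac1 and Hdac2 were close to unrelated, at -0.08.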

How the data were processed

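Hippocampal RNA was hybridised to Affymetrix Mouse Gene 1.0 ST arrays. The values are log2 expression as deposited by the authors, who, per the labels' protocols, worked in GeneSpring GX 11. RMA was the method, per the submitters' processing notes. The sources used here give neither its version nor the genome build. Such normalization would hide a shift shared by most genes. Array medians lay between 5.46 and 5.63, and no arrays were identical. The number of arrays limits the precision.

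Of 35556 transcript clusters, 21789 had 1 gene symbol in the platform table, 1621 had several, and 12146 without an entry stayed unnamed. For genes with several clusters (999) the one with the highest mean was kept, which left 19938. RefSeq identifiers were found for 21698 clusters and changed 0 symbols.

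Groups came from sample titles. The 10 comparisons used limma 3.58.1 (R 4.3.3) with 28 arrays in 1 fit, 8 group means (naive and vehicle controls apart in 1 further fit), empirical Bayes, two-sided tests and Benjamini-Hochberg adjustment over all 19938 genes at 0.05. No block was used in the fit given first. The scripts were tested on simulated data. Besides the deacetylases, up to 4 genes per list and fit with the smallest p among those that passed were named, and the 2 named genes most correlated with a deacetylase, of which some are given. The members and lists were chosen with earlier results of these data known, and so were the array sets.

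Among the TSA and novelty groups, arrays with the same number deviated together (r = 0.52 to 0.80, 45 pairs), but controls did not follow these numbers (-0.58 to 0.23, 36 pairs). Alternatives, whose effect the closing section gives, were blocks by array set or label number, vehicle controls only, array quality weights, repeated quantile normalization, the mean over transcript clusters, dim genes left out, and each array left out.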

Additional observations from a re-analysis of the deposited data

How the results depend on the processing

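The array-set block changed 1 member call, that of Hdac1 for TSA (0.23 log2 in both fits), so that 1 of 10 passed. The count was also 1 with the label number as the block (Hdac1 0.24 ± 0.05, limma adjusted p = 0.0185), with vehicle controls only plus the array-set block (0.23, 0.00321), and with the block once the 3 choroid plexus arrays were left out (0.27). Leaving out array sets 1 to 4 in turn, with the block, kept the count at 1, where Hdac1 differed by 0.23, 0.29, 0.21 and 0.20. Set 1 holds the naive arrays, so leaving it out is the same fit as vehicle controls only plus the block. With the block the naive arrays do not move the averaged TSA difference. It rests on 12 TSA arrays and 12 injected arrays without TSA. Without 1 array, Hdac1 differed by 0.19 to 0.27 over both fits. The label numbers did not pair the controls, so the call under that block says nothing of the size of the effect. Without a block, Hdac1 did not pass in the 6 alternatives tried (vehicle controls only, array weights, dim genes left out, quantile normalization, the mean over transcript clusters, and 3 choroid plexus arrays left out), with 0.21 to 0.28 log2 and limma adjusted p of 0.0677 to 0.465. Of the other members, the TSA difference changed sign in Hdac3 with the label-number block (-0.03) and in Hdac8 with array weights (-0.05), in neither case past the threshold. Without a block, leaving out 1 array also changed the sign in both genes. The lowest values were -0.01 in Hdac3 and -0.02 in Hdac8, and neither gene passed. Array quality weights called 3 of 10 for TSA in wild type in the cage (Hdac2 -0.38, Hdac4 0.50 and Hdac5 0.35 log2) and 3 of 10 for vehicle against naive controls (Hdac2 -0.36, Hdac8 -0.29 and Hdac4 0.42). With weights 19.4% and 14.1% of all genes passed in these comparisons. The cause was not tested. The exclusion of 3 choroid plexus arrays and of whole array sets was chosen after seeing the data.

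Counts over all genes moved more. For TSA, 132 genes passed without a block. They were 899 with the array-set block, 567 with the label-number block, 48 with vehicle controls only, 730 with vehicle controls and the block, 461 with array weights and 69 with dim genes left out. With the 3 choroid plexus arrays left out they were 87, and 534 with the block. Leaving out array sets 1 to 4 with the block gave 730, 247, 288 and 532. Leaving out 1 array gave 81 to 150, and 585 to 953 with the block. With the label-number block 275 were higher and 292 lower, against 89 and 43 without a block and 531 and 368 with the array-set block.

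For novelty, 38 became 95 and 74 with the blocks by array set and label number, 23 with vehicle controls, 89 with vehicle controls and the block, 73 with weights and 90 with the block and the choroid plexus arrays left out. Without 1 array it was 28 to 40, and 83 to 112 with the block. For genotype, 0 became 132 with the block, 88 with vehicle controls and the block, 8 with weights, 2 with quantile normalization and 118 with the block and the choroid plexus arrays left out. Without 1 array it was 0 to 1, and 78 to 177 with the block.

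For TSA in single backgrounds, 0 genes passed without a block. With the array-set block, counts were 4 in cbp+/- and 14 in wild type after novelty, and 5 in cbp+/- and 8 in wild type in the cage, and with vehicle controls too they were 2, 3, 1 and 2. With the block and the choroid plexus arrays left out they were 2, 11, 3 and 4. Weights gave 2 in cbp+/- after novelty, and 7 in cbp+/- and 3872 in wild type in the cage. The label-number block gave 3 in cbp+/- and 99 in wild type in the cage, and quantile normalization 1 in cbp+/- in the cage. Leaving out 1 array gave 0 to 1. For vehicle against naive controls 480 became 2805 with weights and 112 to 451 without 1 array, the lowest 4 counts (112 to 155) without 1 of the 4 naive arrays. The interactions stayed at 0 genes in all alternatives run.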
